A study of Mus musculus with 6 samples.

Results

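The 42 genes described here carry out or trigger the interferon response, and were taken by symbol from the 54146 genes counted in each library. They comprise 25 genes typical of the response to type I interferon, 9 genes more typical of interferon gamma, 4 RNA sensors or their adaptor, 3 receptor chains, and Irf1, a transcription factor that both responses use. All 42 were found, and all 42 passed the filter on low counts. They were picked by name, with earlier results of these libraries known.

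Interferons are secreted proteins that switch on antiviral genes in the cells they reach. Double-stranded RNA in the cytosol is detected by RIG-I and MDA5, which signal through MAVS on the mitochondrial outer membrane, while cytosolic DNA is detected by cGAS and STING; both routes can start interferon production. Type I interferon then acts through IFNAR1 and IFNAR2 on a complex with STAT2 and IRF9 that binds interferon-stimulated response elements, whereas interferon gamma acts through IFNGR1 and IFNGR2 on factors that bind gamma-activated sites. Mitochondrial DNA and RNA released into the cytosol are known ligands of these sensors.

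RNA was sequenced from whole kidneys of B6C3F1/J mice at postnatal day 84, given as 12 weeks in the sample titles. One group is labelled Tfam f/f (n = 3 libraries), which stands for floxed Tfam alleles without Cre. The other is labelled KspCre Tfam f/f (n = 3 libraries), for the same floxed alleles with the KspCre transgene. Ksp is kidney-specific cadherin, encoded by Cdh16, so Cre from its promoter acts in tubule epithelium, and a whole kidney also holds cells in which Tfam is not deleted. Below, libraries labelled Tfam f/f are called control-labelled and those labelled KspCre Tfam f/f are called KspCre-labelled. Whether the 3 libraries of a group are 3 mice is not in the labels, and the spread that p-values rest on may thus be technical.

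The targeted gene went against the labels. Tfam, which packages and transcribes mitochondrial DNA, had 30.3, 33.6 and 23.2 CPM (counts relative to the library's total, scaled for library composition) in replicates 1, 2 and 3 of the control-labelled group. The KspCre-labelled replicates had 63.1, 63.5 and 61.4 CPM, 2.16-fold more (adjusted p = 0.00107). Cdh16 itself did not pass, at 1319 ± 498 against 1920 ± 596 CPM (SD, n = 3 each, adjusted p = 0.249). The names of the deposited tables also go against the labels: they tag the control-labelled libraries MV and the KspCre-labelled libraries WT. Whether the labels were exchanged was not tested, and an exchange would reverse every direction below, which is therefore between labels and not between known genotypes. Total gene counts were 19024208 to 34821537 in the first group and 30348281 to 48899266 in the second. Cell type markers also differed: 11 of 12 macrophage markers were higher in the control-labelled libraries, while 7 of 7 proximal tubule and 2 of 4 thick ascending limb markers were higher in the KspCre-labelled libraries. Kap, made by proximal tubule, had 2715 ± 1721 against 26380 ± 382 CPM, and Umod, made by the thick ascending limb, 1873 ± 160 against 5202 ± 55.0 CPM (adjusted p = 0.00432 and 0.00283). None of 5 endothelial markers was called (Kdr, adjusted p = 0.353), and of 5 fibroblast and mural markers 1 was called in each direction (Rgs5 higher in the KspCre-labelled libraries, adjusted p = 0.00867). In bulk tissue, fewer cells of a type and less RNA per cell cannot be told apart.

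Of the 42 genes, 16 were higher in the control-labelled libraries, Cmpk2 was higher in the KspCre-labelled libraries, and 25 did not pass the test (edgeR quasi-likelihood test, Benjamini-Hochberg adjusted p below 0.05 over all tested genes). Calls in either direction made up 46.2% of all 17308 tested genes. The 16 make up 38.1% of the 42, against 24.9% of all tested genes called in that direction, and the 1 called in the other direction stands against 21.3% of all tested genes. Their median log2 fold change was -0.51 (KspCre Tfam f/f minus Tfam f/f, the sign used throughout), against -0.03 over all tested genes. The CPM of the groups did not overlap for 23 of the 42, 22 of them higher in the control-labelled libraries. Over all tested genes the shares without overlap were 61.9% in either direction, 32.1% in that direction and 29.8% in the other. Folds were modest: the largest was 3.30-fold, for Ifit3. Without each of the 3 KspCre-labelled libraries in turn, 11 members were called higher in the other group, and without control-labelled replicate 2 there were 24.

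The scaling of the libraries bears on these counts. With library totals alone, 33 members were called higher in the control-labelled libraries and 0 in the others. Of all tested genes, 8519 were then called higher there and 1680 lower, and the median log2 fold change of all genes moved from -0.03 to -0.46.

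**Figure D1:**
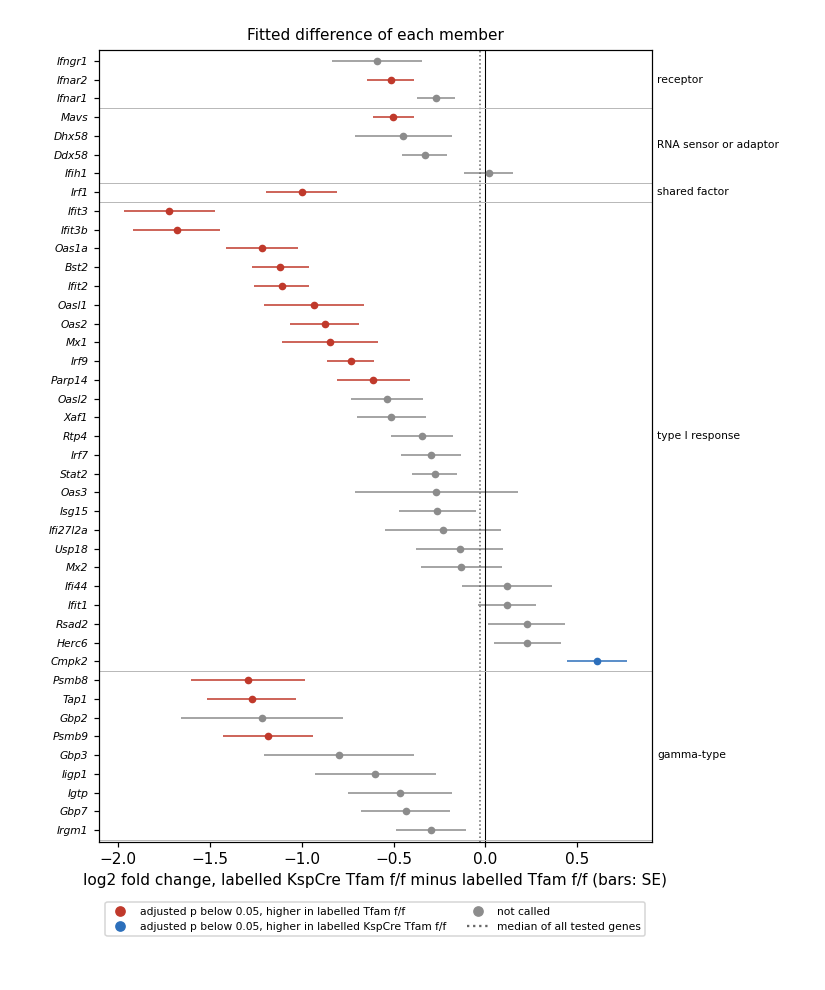
Fitted log2 fold change of each member (horizontal axis, KspCre Tfam f/f minus Tfam f/f labels) with its SE, by class, with the median of all tested genes (-0.03) as a dotted line. The 16 red members lie to the left, from Ifit3 at -1.72 to Mavs at -0.50, and Cmpk2 at 0.61 is the 1 blue member on the right.

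Interferon transcripts themselves were close to undetected. Of 21 genes for type I, II and III interferons, 17 had 0 reads in all 6 libraries, among them Ifnb1, and none passed the filter for testing. A count of 0 allows up to 0.0705 to 0.126 CPM, depending on the library and covering counting error only. Ifng, the gamma interferon made by T and NK cells, had 2, 1 and 8 reads in control-labelled replicates 1, 2 and 3 and 0, 1 and 2 in the KspCre-labelled libraries. Ifnz had 4 of the remaining reads, and Ifnab and Ifne 1 each. No comparison of ligands was possible at this depth.

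Of the 3 receptor chains, Ifnar2 passed the test, and in all 3 the groups did not overlap, as in 61.9% of all tested genes. The 1 called makes up 33.3%, against 24.9% of all tested genes called higher in the control-labelled libraries. Ifnar2, the chain that binds type I interferon with high affinity, had 15.4, 15.4 and 18.6 CPM in the control-labelled libraries and 10.8, 11.3 and 12.5 in the KspCre-labelled libraries. The fold was 1.43 (SE 0.13 in log2, adjusted p = 0.0143). Its call was lost without KspCre-labelled replicate 1 or 2 (adjusted p = 0.0679 and 0.0635, with 0.00206 to 0.0679 over the alternatives), and its exons overlap the same-strand gene model Gm21970. Ifnar1, the second chain of that receptor, had means of 62.8 ± 7.48 and 52.1 ± 0.953 CPM (SD, n = 3 each, adjusted p = 0.0644). Ifngr1, the ligand-binding chain for interferon gamma, had 43.4, 37.8 and 76.1 against 33.6, 36.1 and 34.4 CPM (adjusted p = 0.0821), with replicate 3 well above the other control-labelled libraries.

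Among 7 other receptor chains, kinases and STATs, 4 were higher in the control-labelled libraries and 3 did not pass. The 4 make up 57.1%, against 24.9% of all tested genes called in that direction. Ifnlr1, which binds type III interferon and is found mainly in epithelia, was 3.01-fold higher (14.4 ± 4.15 against 4.79 ± 0.958 CPM, adjusted p = 0.00259). Ifngr2 was 1.66-fold higher (adjusted p = 0.00694) and the kinase Tyk2 1.32-fold (adjusted p = 0.00603).

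Of the RNA sensing genes, the adaptor differed and the sensors did not pass. Mavs, the mitochondrial adaptor of both sensors, had 165, 156 and 139 CPM in the control-labelled libraries and 103, 117 and 105 in the KspCre-labelled libraries. This 1.42-fold difference (SE 0.11 in log2, adjusted p = 0.0095) separated the groups without overlap, as in 32.1% of all tested genes in that direction. The call was lost without KspCre-labelled replicate 1 or 3 (adjusted p = 0.058 and 0.0583, in a range of 0.000366 to 0.0583). Ifih1, which encodes MDA5, had means of 19.7 ± 3.05 and 19.98 ± 0.506 CPM (log2 fold change 0.02, SE 0.13), and with library totals alone it turned to -0.41 with an adjusted p of 0.0481. Ddx58, which encodes RIG-I, had 34.4, 34.2 and 43.7 against 32.1, 28.5 and 28.6 CPM, without overlap (adjusted p = 0.0569). It was called with upper quartile scaling, with library totals alone and without control-labelled replicate 2 (adjusted p = 0.035, 0.00444 and 0.038, in a range of 0.00444 to 0.18). Dhx58, which encodes the regulator LGP2, was low in both groups at 2.95 ± 0.471 and 2.17 ± 0.636 CPM, and an antisense gene, Dhx58os, overlaps its exons.

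In a list of 20 further genes of RNA sensing, 6 were higher in the control-labelled libraries, 3 were higher in the others and 11 did not pass, with a median log2 fold change of 0.08. The share of 30.0% called higher in the control-labelled libraries is near the 24.9% of all tested genes, of which 21.3% were called in the other direction. Adar, which edits double-stranded RNA, was 1.54-fold higher in the control-labelled libraries (adjusted p = 0.00169). Trim25, a ubiquitin ligase that activates RIG-I, went the other way, at 68.7 ± 7.52 against 114 ± 4.83 CPM (1.67-fold, adjusted p = 0.00197). Without each KspCre-labelled library in turn the count of 6 fell to 3, 2 and 2, and without control-labelled replicate 2 the count of 3 became 5.

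**Figure D2:**
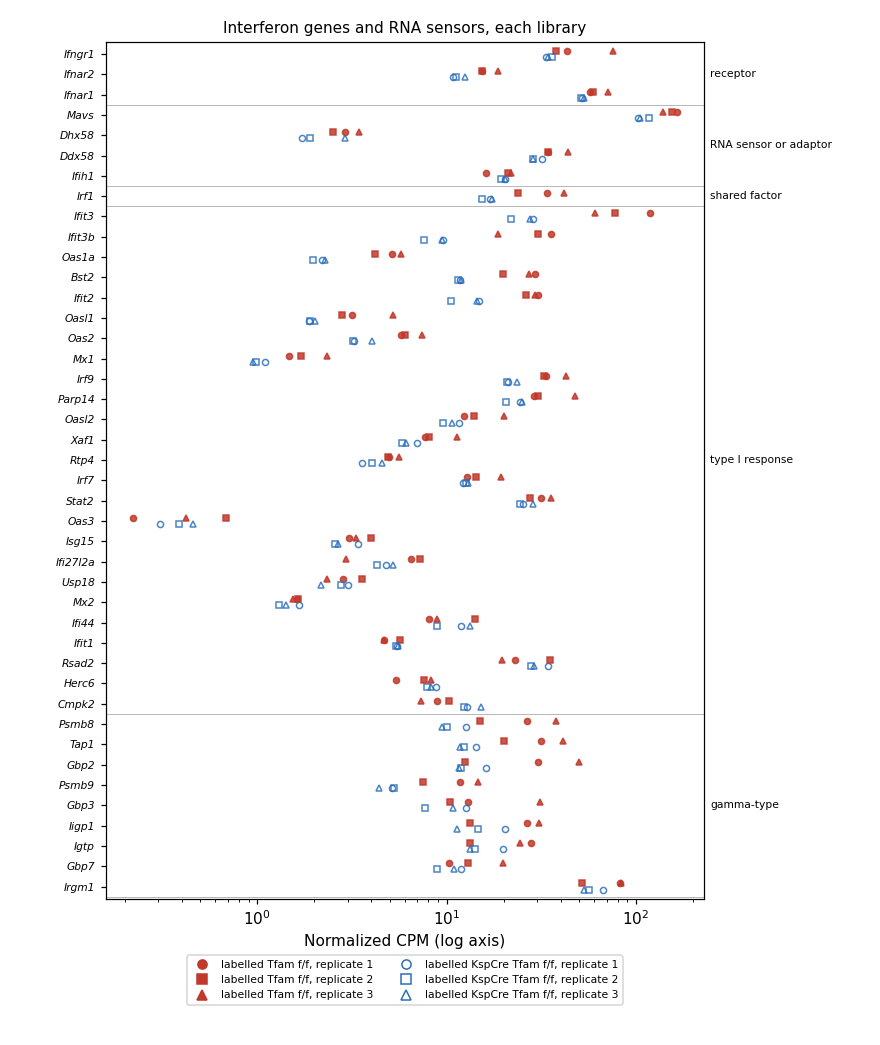
Normalized CPM of each member in each library (log axis), with filled red symbols for the control-labelled libraries, open blue symbols for the KspCre-labelled libraries, and a symbol shape per replicate number. Members span from Oas3, at 0.220 to 0.685 CPM, to Mavs, at 103 to 165 CPM, and the red triangle of replicate 3 lies furthest right for most gamma-type genes.

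Transcription factors of the response split. Irf1, which drives antigen presentation genes and is induced by both interferon types, had 34.1, 23.8 and 41.5 CPM in the control-labelled libraries and 16.9, 15.3 and 17.4 in the KspCre-labelled libraries (2.0-fold, SE 0.19 in log2, adjusted p = 0.00557). Irf9, the DNA-binding part of the type I complex, had 33.7, 32.7 and 42.6 against 21.2, 20.8 and 23.6 CPM (1.66-fold, SE 0.13 in log2, adjusted p = 0.00358). In both the groups did not overlap, and both were called under all 15 alternatives. Irf9 shares exon sequence with the same-strand neighbour Rnf31 and Irf1 has an overlapping antisense model, Gm17334, so both counts carry that uncertainty. Stat2, the partner of IRF9, had 31.6 ± 4.16 against 26.1 ± 2.28 CPM (adjusted p = 0.102). Irf7, the factor that amplifies interferon production, had 12.8, 14.2 and 19.4 against 12.2, 12.6 and 13.0 CPM, with overlap, and did not pass (adjusted p = 0.175).

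The type I response genes did not move as a block. Of the 25, 10 were higher in the control-labelled libraries (40.0%, against 24.9% of all tested genes), Cmpk2 was lower there and 14 did not pass. In the direction of Cmpk2, 21.3% of all tested genes were called. Log2 fold changes ran from -1.72 to 0.61 with a median of -0.35. The 10 were Ifit2, Ifit3, Ifit3b, Irf9, Oas1a, Oas2, Oasl1, Mx1, Bst2 and Parp14. Of the 14 that did not pass, Isg15, Rsad2, Usp18, Ifi44 and Ifit1 had log2 fold changes between -0.26 and 0.22.

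The Ifit genes, whose proteins bind foreign RNA and which lie side by side on chromosome 19 (34550694 to 34650009 from Ifit2 to Ifit1 in GRCm38), differed within 1 locus. Ifit3 had 119, 77.1 and 60.9 CPM in the control-labelled libraries and 28.6, 21.8 and 27.7 in the KspCre-labelled libraries (SE 0.25 in log2, adjusted p = 0.00197). Ifit3b had 35.7, 30.6 and 18.7 against 9.54, 7.56 and 9.46 CPM, 3.20-fold. In both, replicate 1 was the highest and replicate 3 the lowest of the control-labelled libraries. These paralogs share long stretches: 31.7% of the 100-base windows of Ifit3 transcripts and 27.4% of those of Ifit3b also occur in the other, and how reads that fit both were counted is not known, so both levels are uncertain. Ifit2 shares none, and had 30.4, 26.3 and 29.3 against 14.8, 10.6 and 14.5 CPM (2.16-fold, SE 0.15 in log2, adjusted p = 0.00151). Ifit1, next to them, had 4.66, 5.69 and 4.70 against 5.45, 5.39 and 5.57 CPM, with overlap (log2 fold change 0.12, SE 0.16, adjusted p = 0.553). A pair of related genes outside the 42, named after their values were seen, were higher in the KspCre-labelled libraries: Ifit1bl1 by 1.67-fold (1.47 ± 0.337 against 2.47 ± 0.217 CPM, adjusted p = 0.0409) and Ifit1bl2 by 2.21-fold (0.887 ± 0.252 against 1.99 ± 0.245 CPM, adjusted p = 0.0131). Ifit1 shares 3.29% of its 100-base windows with Ifit1bl2.

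Upstream sequences of these and other members were searched for the elements of both responses. The promoter table of RefSeq (GRCm38.p6, 250 bases before to 50 after each start) held 33 of the 42 members. It was searched on both strands for a core of the interferon-stimulated response element, GAAA followed by any 2 bases and GAAA again (on the other strand TTTC, any 2 bases and TTTC). It was also searched for the gamma-activated site TTCNNNGAA, which reads the same on both strands. The searches were separate, so matches could overlap. The first motif was in 16 of 33 members (48.5%) against 3.99% of 27025 genes with such a window, and the second in 9 (27.3%) against 9.55%. Within the type I response genes, 4 of 7 called higher in the control-labelled libraries and 5 of 10 not called held the first motif, and 3 of 7 and 0 of 10 the second. Of the gamma-type genes, 0 of 3 called and 5 of 5 not called held the first motif, and 1 of 3 and 2 of 5 the second. Over all members the first motif was in 4 of 14 called and 12 of 19 not called, and the second in 6 of 14 and 3 of 19. A match is a description of these letters and not evidence of binding. The 80-base stretches below lie upstream of the RefSeq start, 5′ to 3′ on the strand of the gene, with matches to the first motif in capitals. The first 4 belong to members called higher in the control-labelled libraries, the next 3 to type I response members that were not called, and the last 2 to gamma-type members that were not called.
Ifit3 (chr19:34583368-34583447, plus strand): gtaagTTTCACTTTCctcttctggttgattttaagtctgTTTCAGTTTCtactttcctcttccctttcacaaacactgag
Ifit3b (chr19:34607764-34607843, plus strand): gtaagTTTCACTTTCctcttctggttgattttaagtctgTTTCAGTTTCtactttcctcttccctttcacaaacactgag
Oas1a (chr5:120907526-120907605, minus strand): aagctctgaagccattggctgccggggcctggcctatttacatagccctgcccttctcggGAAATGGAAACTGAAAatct
Bst2 (chr8:71537528-71537607, minus strand): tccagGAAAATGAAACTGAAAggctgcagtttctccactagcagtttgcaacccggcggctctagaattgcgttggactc
Ifit1 (chr19:34640780-34640859, plus strand): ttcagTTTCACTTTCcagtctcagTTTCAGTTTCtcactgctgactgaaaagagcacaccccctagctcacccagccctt
Isg15 (chr4:156200822-156200901, minus strand): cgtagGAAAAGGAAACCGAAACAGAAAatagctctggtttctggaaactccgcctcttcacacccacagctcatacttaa
Rsad2 (chr12:26456498-26456577, minus strand): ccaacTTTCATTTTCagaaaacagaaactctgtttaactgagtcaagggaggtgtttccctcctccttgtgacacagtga
Gbp7 (chr3:142530256-142530335, plus strand): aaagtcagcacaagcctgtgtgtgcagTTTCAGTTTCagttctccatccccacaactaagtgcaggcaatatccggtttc
Igtp (chr11:58199476-58199555, plus strand): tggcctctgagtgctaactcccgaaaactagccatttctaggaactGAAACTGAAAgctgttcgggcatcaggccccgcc

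Ifit1, Ifit3 and Ifit3b each hold 2 matches. At the best offset without gaps, 32 bases, the Ifit3 and Ifit3b windows were identical at 201 of 268 bases (75.0%). Ifit1 holds the same 10-letter runs as Ifit3 and was not called, while the other two were.

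The OAS genes, whose enzymes are activated by double-stranded RNA, differed by member. Oas1a had 5.14, 4.22 and 5.75 CPM in the control-labelled libraries and 2.21, 1.98 and 2.29 in the KspCre-labelled libraries (2.33-fold, SE 0.20 in log2, adjusted p = 0.00283). Oas2 had 5.77, 6.03 and 7.39 against 3.24, 3.19 and 4.04 CPM (1.84-fold, adjusted p = 0.00791). Neither overlapped between groups, though 40.9% of the 100-base windows of Oas1a also occur in Oas1g. Oas3, the neighbour of Oas2 on chromosome 5, had 0.220, 0.685 and 0.420 against 0.305, 0.387 and 0.458 CPM, which overlap (adjusted p = 0.646). Oasl1, an OAS-like protein that represses Irf7 translation, had 3.16, 2.79 and 5.20 against 1.88, 1.91 and 2.02 CPM (1.91-fold, adjusted p = 0.0255). It was not called without KspCre-labelled replicate 1, 2 or 3 (adjusted p = 0.0842, 0.0853 and 0.074, in a range of 0.00628 to 0.0853), and its exons overlap the antisense model Gm13822. Oasl2 had 12.4, 13.96 and 20.1 against 11.7, 9.62 and 10.7 CPM, without overlap, and missed the threshold (adjusted p = 0.0549), while 6 of 15 alternatives called it.

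Other effectors included tetherin, Mx1 and Parp14. Bst2, which encodes tetherin and holds budding virus at the cell surface, had 29.4, 19.9 and 27.3 CPM against 11.8, 11.5 and 11.9 (2.17-fold, SE 0.16 in log2, adjusted p = 0.00166) and did not overlap. Mx1, a dynamin-like antiviral GTPase, had 1.47, 1.71 and 2.35 against 1.10, 0.991 and 0.954 CPM (1.80-fold, adjusted p = 0.0309). Its call was lost under 7 of 15 alternatives, with the replicate number as a block (adjusted p = 0.0767), without a filter (0.0538), on thinned counts (0.0966), without control-labelled replicate 3 (0.0653) and without KspCre-labelled replicate 1, 2 or 3 (0.077, 0.107 and 0.107). Parp14, an ADP-ribosyltransferase, had 28.9, 30.3 and 47.9 against 24.3, 20.7 and 24.95 CPM (1.53-fold, adjusted p = 0.0379). That call was lost on thinned counts (adjusted p = 0.0679) and without KspCre-labelled replicate 1, 2 or 3 (0.0884, 0.129 and 0.0818, in a range of 0.00618 to 0.129).

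Rsad2 and Cmpk2, neighbours on chromosome 12 (26442746 to 26479837 over both), both had positive log2 fold changes, and Cmpk2 passed the test. Cmpk2, a mitochondrial nucleotide kinase that supplies mitochondrial DNA synthesis, had 8.92, 10.3 and 7.30 CPM in the control-labelled libraries and 12.9, 12.4 and 15.3 in the KspCre-labelled libraries (1.52-fold higher in the latter, SE 0.16 in log2, adjusted p = 0.0187). The groups did not overlap. The call was lost with library totals alone (adjusted p = 0.316) and without control-labelled replicate 1 or KspCre-labelled replicate 1 or 3 (0.0546, 0.0517 and 0.0794, in a range of 0.00424 to 0.316). Rsad2, which encodes viperin, had 23.0, 35.4 and 19.7 against 34.2, 28.1 and 29.1 CPM, with overlap (adjusted p = 0.407). Without control-labelled replicate 2, its highest library in that group, it was called higher in the KspCre-labelled libraries (log2 fold change 0.54, adjusted p = 0.0147, in a range of 0.0147 to 0.826).

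The remaining type I response members did not pass. Mx2, Usp18 (a protease that removes ISG15), Herc6 (the ligase that attaches ISG15) and Ifi44 had log2 fold changes of -0.13, -0.14, 0.23 and 0.12. Isg15, the ubiquitin-like protein these enzymes act on, had 3.05, 3.98 and 3.32 against 3.41, 2.56 and 2.67 CPM. Xaf1 and Rtp4 did not overlap between groups, at 9.02 ± 2.01 against 6.31 ± 0.614 CPM and 5.15 ± 0.378 against 4.06 ± 0.474 CPM, with log2 fold changes of -0.51 and -0.35 and adjusted p of 0.0568 and 0.131. Ifi27l2a overlapped, at 5.54 ± 2.29 against 4.76 ± 0.476 CPM (adjusted p = 0.569).

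The gamma-type genes all had negative fitted differences, but 3 of the 9 passed the test (33.3%, near the 24.9% of all tested genes called in that direction). Their median log2 fold change was -0.80, with a range of -1.29 to -0.30. The 3 called were Psmb8, Psmb9 and Tap1, which sit together on chromosome 17 in the major histocompatibility complex and serve antigen processing. Psmb8, a catalytic subunit of the immunoproteasome, had 26.5, 15.1 and 37.7 CPM in the control-labelled libraries and 12.6, 10.1 and 9.5 in the KspCre-labelled libraries (2.45-fold, SE 0.31 in log2, adjusted p = 0.0129). Psmb9, a second such subunit, had 11.8, 7.48 and 14.6 against 5.14, 5.29 and 4.39 CPM (2.27-fold, adjusted p = 0.00748). Tap1, a subunit of the peptide pump that feeds class I molecules, had 31.7, 20.2 and 41.1 against 14.3, 12.3 and 11.7 CPM (2.42-fold, adjusted p = 0.00544). None of the 3 overlapped between groups. Exons of Psmb9 and Tap1 overlap on opposite strands, and whether the counting used strand is not known. Psmb8 was not called without KspCre-labelled replicate 2 or 3 (adjusted p = 0.0528 and 0.0526, in a range of 0.000287 to 0.0528).

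The GTPases, which attack the membranes around intracellular microbes did not pass and varied widely between the control-labelled libraries. Gbp2, a guanylate-binding protein, had 30.3, 12.5 and 50.2 CPM in the control-labelled libraries and 16.2, 11.9 and 11.6 in the others (2.33-fold, adjusted p = 0.0562). Replicate 2 lay within the range of the KspCre-labelled libraries. Gbp3 had 13.0, 10.5 and 31.0 against 12.7, 7.73 and 10.8 CPM, and Iigp1 had 26.7, 13.4 and 30.8 against 20.4, 14.7 and 11.4. Igtp had 27.9, 13.4 and 24.5 against 19.99, 14.1 and 13.3 CPM, Irgm1 82.1, 51.9 and 83.5 against 67.3, 56.4 and 53.3, and Gbp7 had a mean of 14.3 ± 4.89 against 10.6 ± 1.51. In these 6 genes the groups overlapped, and adjusted p ranged from 0.0562 for Gbp2 to 0.231 for Irgm1. Without control-labelled replicate 2, 7 of the 9 gamma-type members were called, with Gbp2, Irgm1, Igtp and Iigp1 joining the 3.

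Set beside each other, the classes differed in how the control-labelled libraries compared among themselves. The median difference of the gamma-type members from the mean level in the KspCre-labelled libraries was 0.82, 0.01 and 1.56 (log2) in replicates 1, 2 and 3. For the type I response members it was 0.28, 0.43 and 0.62. Replicate 2 was thus at the other group's level for the median gamma-type gene and not for the median type I response gene. It was the lowest library of its group for 8 of 9 gamma-type members (88.9%) and for 7 of 25 type I response members (28.0%), against 36.6% of all tested genes. Replicate 3 was the highest for 8 of 9 and 12 of 25 members, against 37.4%. The median coefficient of variation within the control-labelled libraries was 34.6% for gamma-type and 21.4% for type I response members, against 18.0% over all tested genes. Tubule and endothelial markers ordered the same libraries in reverse: the summed CPM was 6050, 10500 and 2170 for proximal tubule and 153, 245 and 121 for endothelium in replicates 1, 2 and 3, and all 7 and all 5 of these markers were highest in replicate 2 and lowest in replicate 3. The part of this in the interferon gene results was not tested, and no test was made of the difference between the classes.

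**Figure D3:**
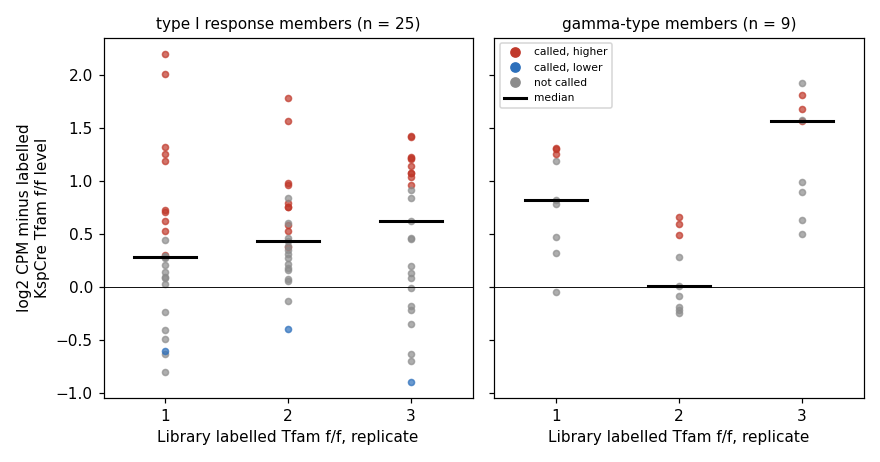
Difference of each type I response member (left, n = 25) and gamma-type member (right, n = 9) in each control-labelled library from the mean of the KspCre-labelled libraries, in log2 CPM, with black bars at the medians. The gamma-type medians are 0.82, 0.01 and 1.56 and those of the type I response 0.28, 0.43 and 0.62.

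Macrophage, lymphocyte and neutrophil markers put the control-labelled libraries in the same order as the summed gamma-type members, which had 260, 157 and 333 CPM in replicates 1, 2 and 3 and 137 to 181 CPM in the KspCre-labelled group. The summed CPM of 12 macrophage markers was 293, 196 and 615 in control-labelled replicates 1, 2 and 3 and 141 to 156 in the KspCre-labelled libraries, with none at 0, and replicate 2 was the lowest for 10 of the 12. Cd68, a macrophage marker chosen after its values were seen, had 11.1, 7.40 and 18.3 against 3.05, 2.88 and 3.01 CPM. Csf1r, the receptor for a macrophage growth factor, did not pass and had a positive log2 fold change of 0.32 (adjusted p = 0.214). For T and NK cells, 2 of 8 tested markers were called, both higher in the control-labelled libraries. This share is near the 24.9% of all tested genes called in that direction. The 2 were Lck, a T cell kinase (8.58 ± 2.89 against 1.76 ± 0.129 CPM, adjusted p = 0.00101), and Cd4 (means of 5.74 and 1.26 CPM, adjusted p = 0.0127). The other 6 did not pass, and Cd8a among them had a positive log2 fold change of 0.36. The summed level of the 10 listed was 17.8, 14.4 and 30.8 against 6.79 to 8.87 CPM. In the control-labelled libraries this sum rested mostly on Lck and Cd4. For 6 B and plasma cell markers the sums were 358, 225 and 505 against 59.0 to 109 CPM, with 3 of 5 tested called higher there, Igkc among them (adjusted p = 0.0031). Both tested neutrophil markers were higher there too (Csf3r, adjusted p = 0.0284), with sums over the list of 6.76, 2.16 and 12.0 against 0.954 to 1.93 CPM, and Ly6g was at 0 in 5 libraries. Of 5 markers listed for plasmacytoid dendritic cells, the lineage that makes most type I interferon, none was called (Tcf4, adjusted p = 0.262). Their sums were 44.9 to 55.0 against 51.4 to 53.0 CPM, and rest mostly on Tcf4 (means of 33.1 and 38.0 CPM) and Irf8 (15.6 and 12.8). Siglech (0.281 and 0.257 CPM) and Ccr9 (0.210 and 0.379) were close to undetected. The list thus says little about the level of these cells. The part of these cells in the interferon gene results was not tested.

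**Figure D4:**
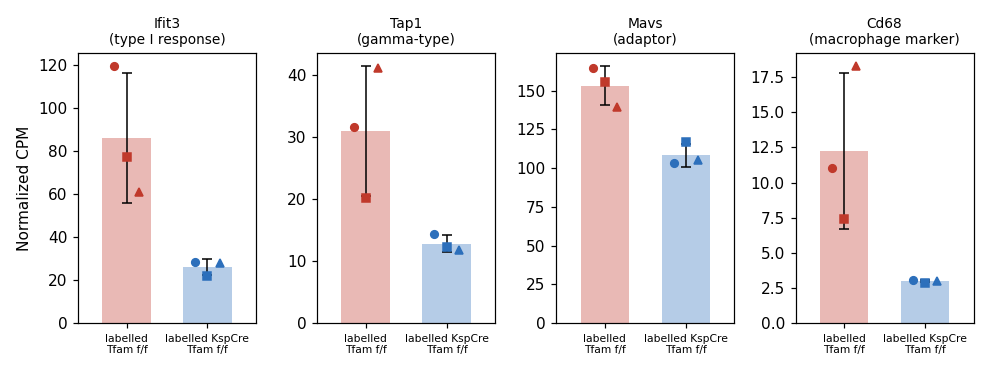
Normalized CPM of Ifit3, Tap1, Mavs and the macrophage marker Cd68 in each library (symbol shape by replicate number), with bars at the mean and lines for the SD (n = 3 libraries per label, axes from 0). Tap1 and Cd68 are highest in control-labelled replicate 3 (41.1 and 18.3) and Ifit3 is lowest there (60.9). Ifit3 does not stand for its class in this: of 25 type I response members, 12 are highest in replicate 3 and 7 are lowest.

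Further genes of both responses were listed by name. Of 31 tested gamma-type genes outside the 42, 19 were higher in the control-labelled libraries, Cxcl11 (named after its values were seen) was lower and 11 did not pass. Their median log2 fold change was -0.83. The 19 make up 61.3%, against 24.9% of all tested genes called in that direction and 21.3% in the other. Wars, a tryptophanyl-tRNA synthetase that interferon gamma also induces, was 3.51-fold higher (122 ± 13.1 against 34.7 ± 0.205 CPM, adjusted p = 6.44e-05). Psmb10, the remaining immunoproteasome catalytic subunit, was 2.51-fold higher (adjusted p = 0.00222) and the proteasome activator Psme1 1.90-fold (adjusted p = 0.00244). Replicate 2 was the lowest library of its group for 27 of these 31 (87.1%). The count of 19 fell to 9 without KspCre-labelled replicate 2 and to 9 without replicate 3.

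Of 43 further type I response genes, 16 were higher in the control-labelled libraries, 7 were lower and 20 did not pass, with a median log2 fold change of -0.30. The 16 make up 37.2%, against 24.9% of all tested genes called in that direction. The 7 stand against 21.3% of all tested genes called in the other. Zc3hav1, the zinc-finger antiviral protein, was 2.14-fold higher (55.7 ± 9.22 against 26.0 ± 0.706 CPM, adjusted p = 0.000829), and Epsti1 3.30-fold (adjusted p = 0.00141). Nt5c3, a nucleotidase, was lower there at 29.7 ± 2.64 against 51.2 ± 1.37 CPM (adjusted p = 0.00098). Leaving out KspCre-labelled replicate 1, 2 or 3 gave 9, 7 and 9 in place of the 16, and the 7 became 2 to 4 without any 1 library other than control-labelled replicate 2, without which it was 10. Among 10 feedback inhibitors of interferon signalling, Socs3 was higher in the control-labelled libraries (16.9, 9.12 and 56.8 against 1.503, 1.74 and 1.18 CPM, adjusted p = 0.00356), Cyld was lower there and 8 did not pass. These single calls among 10 genes stand against 24.9% and 21.3% of all tested genes in the same directions. Socs3 had a log2 fold change of -4.20 with all libraries and -3.11 without control-labelled replicate 3. Without control-labelled replicate 2 the counts of feedback inhibitors were 2 and 2.

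Per kilobase of exon, the members covered a wide range of levels. Ifit3 and Mavs had the highest means in the control-labelled libraries, 49.2 and 45.8 CPM per kilobase, ahead of Bst2 at 28.3 and Ifngr1 at 18.4. Ifit3 was above Mavs in replicate 1 (68.4 against 49.2) and below it in replicates 2 and 3 (44.2 against 46.6 and 34.9 against 41.7). In the KspCre-labelled libraries, Mavs led at 32.4 CPM per kilobase, ahead of Ifit3 at 14.9, Bst2 at 13.0 and Ifngr1 at 12.2. Oas3 was the lowest in both groups, at 0.0625 and 0.0542 CPM per kilobase. The sensors Ifih1, Ddx58 and Dhx58 stood at 2.42, 5.31 and 0.901 CPM per kilobase in the control-labelled libraries, far below their adaptor Mavs.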

How the data were processed

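RNA with an integrity score above 7 was selected for poly A+ transcripts and sequenced as strand-specific pairs, per the labels' protocols. The authors deposited raw counts of reads per gene, and the submitters' processing notes name HTSeq 0.11.0, STAR 2.4.1d, Trim Galore, FastQC and the mm10 build. Settings, strand option and annotation: not given in the sources used here. The 5 summary lines, 16.0% to 20.4% of each file's sum, were left out.

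Low counts were filtered by filterByExpr. It asked for the CPM of 10 reads in a library of median size, in at least 3 libraries, and 15 reads in all. The rest were fitted on all 6 libraries with edgeR 4.0.16 in R 4.3.3 (TMM, robust glmQLFit, glmQLFTest). Adjusted p below 0.05 was called. CPM used the same factors. The F statistic and fold change give the SE. Positions, exon lengths and shared 100-base windows came from GENCODE M21 (GRCm38, the same build), where 54079 of the 54146 identifiers matched. Promoters came from RefSeq.

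The members and lists were chosen with earlier results of these data known. The naming rule took every called member, up to 3 called genes with the smallest p from each other pathway list, Tfam, Cdh16 and the marker with the highest mean CPM of each marker list. Values of further members are given beside these. Some genes of the wider lists are not reported here by name. On simulated counts (17059 genes), 67, 67 and 66 genes were set to differ by 1.5-fold, 2-fold and 4-fold. The procedure recovered 17.9%, 73.1% and 93.9% of these, with 6 false calls. In the data, 8000 of 17308 tested genes were called. Recovery and false calls with so many differing genes were not tested. No 2 libraries of the same group were duplicates (chi-square per degree of freedom 7.09 to 164), and pairs across the groups were not compared. Alternatives were other scalings and filters, DESeq2 1.42.0, limma 3.58.1 voom, a replicate block, thinned counts, each library left out in turn, and other classes for Irf1 and the sensors.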

Additional observations from a re-analysis of the deposited data

How the results depend on the processing

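The 16 members called higher in the control-labelled libraries became 11 to 24 with single libraries left out, 33 with library totals alone and 15 to 21 under the other alternatives, and the single call in the other direction became 0 to 2, and 0 with library totals alone. Calls higher in the control-labelled libraries were 7 to 12 for the type I response (16 with library totals alone) and 2 to 7 for the gamma type (9 with library totals alone) with single libraries left out. Over all tested genes, the 4310 became 2822 to 4942 and the 3690 became 2276 to 4652 with single libraries left out, and 8519 and 1680 with library totals alone. The median log2 fold change was -0.56 to -0.32 for the type I response, -1.05 to -0.38 for the gamma type, -0.42 to -0.27 for the sensors and -0.57 to -0.23 for the receptors with single libraries left out. With library totals alone it was -0.78, -1.26, -0.83 and -0.95 for the type I response, gamma type, sensors and receptors and -0.46 for all genes, which had -0.10 with upper quartile scaling and -0.071 without a filter. Ifih1 turned to -0.41 with library totals alone. The cause of these changes was not tested.

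In the wider lists, calls higher in the control-labelled libraries ranged over 2 to 5 for RNA sensing, 1 to 2 for feedback inhibitors, 7 to 18 for the type I response and 9 to 24 for the gamma type with single libraries left out. Calls in the other direction ranged over 0 to 1 for receptor chains, kinases and STATs, 2 to 5 for RNA sensing, 1 to 2 for feedback inhibitors and 2 to 10 for the type I response. With library totals alone, 27 further type I response genes and 6 feedback inhibitors were called higher in the control-labelled libraries, and 2, 0 and 1 of the type I response, feedback inhibitors and RNA sensing lower there. Upper quartile scaling gave 2 feedback inhibitors higher and 4 type I response genes lower there, and no filter also gave 4. RLE scaling and DESeq2 each called 1 of the receptor chains, kinases and STATs lower there. A CPM filter left 0 of the gamma-type genes lower.

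Deviations of same-numbered libraries correlated at -0.17, -0.07 and -0.07, and gave no sign that replicate numbers pair the libraries. Over all pairs across the groups the correlations ran from -0.17 to 0.19. With 3 libraries per group these values cannot decide whether libraries were paired. With the replicate number as a block, 15 members were called higher in the control-labelled libraries and 1 lower, with 9 of the type I response and 3 of the gamma type, and Mx1 was the call lost.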
